A study of Mus musculus with 18 samples.

Results

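Bone marrow-derived macrophages (BMDMs) of Il10-/- mice were profiled by RNA-seq, and the 10 genes described here encode the NOD receptors and the cytosolic sensors of foreign RNA and DNA with their adaptors and kinases. The members are Nod1, Nod2 and Ripk2, the RNA helicases Ifih1, Ddx58 and Dhx58, the adaptors Mavs and Tmem173, and the kinases Tbk1 and Ikbke, all 10 found by symbol among the 24485 genes of every file. The question addressed was how LPS, the BET inhibitor JQ1 and exogenous IL-10 changed their RNA. All cells came from 3 mice, 12 weeks of age and on the C57BL/6J background, that lack Il10, so the controls carry the deletion as well and no wild-type cells were in the comparison. Bone marrow was grown for 6 days with 10% L929 conditioned medium. Cells then received 500 nM (+)-JQ1 (JQ1), 10 ng/mL IL-10 or no agent over 12 hours, and either 50 ng/mL LPS or saline buffer for the last 4 hours. This gave 6 groups of 3 libraries, 1 per mouse with the replicate number taken to name the mouse. The groups are called Unstimulated, JQ1, IL-10, LPS, LPS + JQ1 and LPS + IL-10. The labels describe the cells without an agent as untreated, while the study's methods name a vehicle before LPS.

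NOD1 and NOD2 are cytosolic proteins that recognise fragments of bacterial peptidoglycan and recruit the kinase RIPK2, which passes the signal to NF-kB. MDA5 (Ifih1) and RIG-I (Ddx58) bind viral double-stranded RNA and signal through MAVS on mitochondria, and LGP2 (Dhx58) is a related helicase that tunes them. STING (Tmem173) is the adaptor of cytosolic DNA sensing, and TBK1 and IKK-epsilon (Ikbke) phosphorylate the transcription factors that switch on type I interferon genes. LPS, a component of the bacterial outer membrane, acts through a cell-surface receptor, TLR4, and many of the genes listed here are known to be interferon-inducible in macrophages. JQ1 displaces BET proteins, readers of acetylated histones, from chromatin, and IL-10 is a cytokine that restrains macrophage activation.

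The total of RSEM expected counts ranged from 6781952 to 28289498 per library. Values are normalised read counts (expected counts divided by the DESeq2 size factor of the library, comparable between groups for 1 gene) unless TPM (abundance scaled to transcript length, comparable between genes) is named. The 8 macrophage markers summed to 22971 to 24769 TPM in Unstimulated, 14317 to 15764 in LPS and 28936 to 29066 in JQ1 cells, against at most 4.53 TPM for T cell, 5.34 for B cell, 3.06 for dendritic cell, 9.77 for fibroblast and 0.520 for mast cell and basophil markers. The macrophage sum was mostly Lyz2 (17677 to 19119 TPM in Unstimulated and 9722 to 10567 TPM in LPS cells). Cd68, Csf1r, Itgam and Mertk were also lower with LPS, while Adgre1, Cd14 and Fcgr1 (105 to 143, then 246.9 to 291.5 TPM) were higher. The 7 neutrophil markers summed to 23.2 to 84.2 TPM in Unstimulated and 35.5 to 50.8 TPM in LPS cells, with Ly6g at 0 in all 18 libraries. Of the 5 T cell markers Lck alone was higher with LPS (3.88 to 4.46 TPM, against 0.060 to 0.150 in Unstimulated cells), while Cd3e, Cd3d, Cd3g and Cd8a lay between 0 and 0.250 TPM in all libraries. The part of these markers in the results was not tested. The knocked-out gene still had 3.20 to 14.6 TPM, so counts by symbol did not check the deletion. Ribosomal precursor RNA, Rn45s, took 9.11% to 12.5% of counts without LPS and 5.54% to 7.92% with LPS. Unstimulated replicate 1 stood above replicates 2 and 3 for several members (1.51 times their mean for Ifih1, 2.04 for Ddx58, 1.73 for Dhx58, 1.86 for Nod2 and 1.41 for Ikbke), and also for Irf7 (3.22) and Zbp1 (4.04), both interferon-inducible genes. Each result with the Unstimulated group was therefore repeated without that library, a choice made after its values were seen.

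In mm9, by the GENCODE vM1 annotation, the members other than Tmem173 are placed as follows, Nod1 at chr6:54873936-54922606 (minus strand), Nod2 at chr8:91171214-91212373 (plus strand), Ripk2 at chr4:16049880-16090794 (minus strand), Ifih1 at chr2:62433850-62484312 (minus strand), Ddx58 at chr4:40150806-40186861 (minus strand), Dhx58 at chr11:100556018-100565585 (minus strand), Mavs at chr2:131059799-131073761 (plus strand), Tbk1 at chr10:120983511-121023850 (minus strand) and Ikbke at chr1:133150920-133176183 (minus strand). Counts covered whole genes. Ripk2 overlaps a gene annotated as a miRNA, AL807379.1, and may share reads with it. Dhx58 overlaps a transcript on the opposite strand, Gm11547, at its 3' end, and the default counting does not separate strands, so reads of the pair cannot be told apart.

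Sequence upstream of the start site is shown for 5 members that LPS raised, chosen because a searched motif was found in it. It runs from 250 to 36 bases before the start, 5′ to 3′ along the gene, and comes from RefSeq on GRCm38.p6, a later build than that of the counts (Ifih1 at chr2:62646291-62646505, Ddx58 at chr4:40239861-40240075, Nod1 at chr6:54972648-54972862 and Tbk1 at chr10:121586830-121587044 on the minus strand, Nod2 at chr8:88647097-88647311 on the plus strand). Capitals mark the match.
Ifih1: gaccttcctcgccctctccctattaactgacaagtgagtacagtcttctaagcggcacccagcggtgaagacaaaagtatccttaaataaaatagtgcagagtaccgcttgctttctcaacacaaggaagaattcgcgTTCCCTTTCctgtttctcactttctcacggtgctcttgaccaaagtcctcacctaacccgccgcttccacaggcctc
Ddx58: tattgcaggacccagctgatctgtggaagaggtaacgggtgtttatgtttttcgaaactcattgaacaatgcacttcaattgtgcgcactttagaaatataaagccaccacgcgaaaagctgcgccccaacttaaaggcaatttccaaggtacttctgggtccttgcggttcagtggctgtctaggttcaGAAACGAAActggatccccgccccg
Nod1: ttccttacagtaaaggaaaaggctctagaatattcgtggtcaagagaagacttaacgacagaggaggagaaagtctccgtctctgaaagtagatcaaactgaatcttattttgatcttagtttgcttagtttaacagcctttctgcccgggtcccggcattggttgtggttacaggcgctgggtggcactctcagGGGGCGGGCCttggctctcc
Nod2: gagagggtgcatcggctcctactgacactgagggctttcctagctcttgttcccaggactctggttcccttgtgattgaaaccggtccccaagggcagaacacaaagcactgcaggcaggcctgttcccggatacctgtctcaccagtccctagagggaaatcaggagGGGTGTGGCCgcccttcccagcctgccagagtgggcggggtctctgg
Tbk1: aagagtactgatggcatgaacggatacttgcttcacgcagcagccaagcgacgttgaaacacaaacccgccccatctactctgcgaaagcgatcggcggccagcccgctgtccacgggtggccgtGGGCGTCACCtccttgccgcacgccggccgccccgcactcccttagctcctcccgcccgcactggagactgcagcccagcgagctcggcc
In Ifih1 the capitals begin 112 bases before the start and hold, on the reverse strand, GAAANNGAA, the core of the interferon-stimulated response element without its last letter. In Ddx58 they begin 60 bases before the start and hold GAANNGAAA, the core written with 1 A fewer in its opening run. The letters there, GAAACGAAA, also read as GAAA and GAAA 1 base apart. These shortened forms, which occurred in 6.17% and 5.47% of all 32851 promoters, were searched after no member proved to hold the full core, in which GAAA and GAAA are 2 bases apart (2.58% of promoters). In Nod1, Nod2 and Tbk1 the capitals mark the NF-kB core, GGG and CC with 5 bases of any kind between them, which begins 55, 82 and 125 bases before the start and was present in 40.4% of all promoters. The AP-1 core TGANTCA, in 5.97% of promoters, was in none of the member sequences searched. Both strands were searched, and the first shortened form lies inside the full core wherever that occurs. The table held 7 of the 10 members, with a pair of start sites for Nod1, of which the upstream one is shown. Ripk2, Dhx58 and Tmem173 were not searched. A match describes the letters in the window only.

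LPS raised 8 of the 10 members and lowered 1, against 31.6% of the 14965 genes tested that rose and 32.9% that fell (DESeq2 Wald test, Benjamini-Hochberg adjusted p under 0.05). The median log2 fold change of the members was 4.31, against -0.07 over all genes tested. In these bulk samples a change in the number of expressing cells and a change in RNA per cell cannot be told apart. Among the NOD proteins, Nod1 read 214.5, 183 and 182 in Unstimulated replicates 1, 2 and 3 and 7222, 7455 and 6849 in the LPS libraries. The groups lay far apart, with a 37.0-fold rise (log2 fold change 5.21, SE 0.10, DESeq2 adjusted p rounded to 0 by the software). Nod2 went from 132, 57.5 and 84.5 to 2774, 2837 and 2456. It was the least abundant member before LPS, and its 28.4-fold rise also cleared the spread between mice (log2 fold change 4.83, SE 0.17, DESeq2 adjusted p = 4.25e-167). Ripk2, the kinase downstream of both receptors, went from 158, 172.5 and 153.5 to 7458, 6883 and 7688, a 46.0-fold rise (log2 fold change 5.52, SE 0.11, DESeq2 adjusted p rounded to 0 by the software). Receptors and kinase of this branch thus all rose in every mouse.

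The RNA helicases rose as well, Ifih1 the most of all members. Ifih1, which encodes MDA5, the sensor of long double-stranded RNA, had 684, 429.6 and 475 normalised counts in Unstimulated cells and 45102, 41791 and 51091 after LPS. This was 86.3-fold (log2 fold change 6.43, SE 0.14, DESeq2 adjusted p rounded to 0 by the software), and 6.66 on the log2 scale without Unstimulated replicate 1. Ddx58, which encodes RIG-I, the sensor of RNA with a 5′ triphosphate, rose from 864, 414 and 432 to 14912, 14231 and 15992 (log2 fold change 4.71, SE 0.18, DESeq2 adjusted p = 3.53e-144, or 5.15 without Unstimulated replicate 1). Dhx58 rose from 509, 277 and 312 to 5834, 5639 and 5109 (log2 fold change 3.90, SE 0.17, DESeq2 adjusted p = 3.23e-121, or 4.21 without that library). Replicate 1 was the highest Unstimulated library for all 3 helicases, and even so no Unstimulated value came near the LPS values.

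The adaptors were not raised. Mavs, through which both RNA sensors signal, fell from 572, 631 and 562 to 257, 235 and 205, a 2.52-fold decrease with no overlap (log2 fold change -1.33, SE 0.11, DESeq2 adjusted p = 1.88e-34). Tmem173 had 477.5, 423 and 382 in Unstimulated and 389, 331 and 384 in LPS libraries, which overlapped, and the difference did not pass the test (log2 fold change -0.22, SE 0.12, DESeq2 adjusted p = 0.0839, 95% interval -0.45 to 0.01). This value depended on the scaling, with a log2 fold change of -0.30 (adjusted p = 0.0152) in DESeq2 with TMM factors and -1.15 (adjusted p = 4.38e-24) with total counts, under which the median of all genes tested itself lay at -1.02. The kinases that act below both adaptors rose. Tbk1 went from 942, 925 and 958 to 3242, 3321 and 3611, 3.60-fold (log2 fold change 1.85, SE 0.07, DESeq2 adjusted p = 8.36e-138), and Ikbke, its LPS-inducible relative, went from 1160, 795 and 855 to 10987, 10696 and 9482 (log2 fold change 3.47, SE 0.12, DESeq2 adjusted p = 1.96e-169). Both kinases separated completely by LPS.

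**Figure D1:**
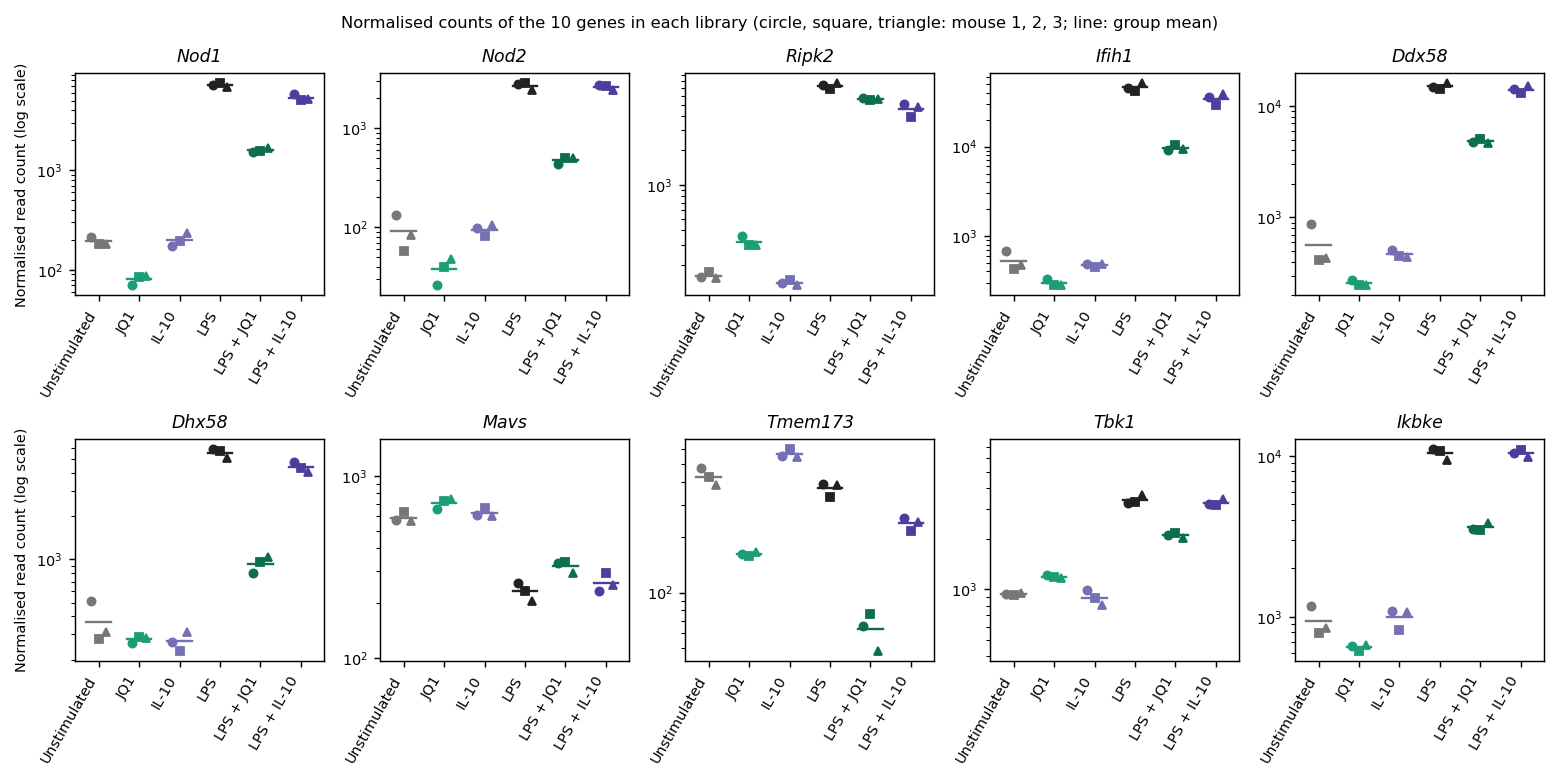
Normalised read counts (log scale, 1 panel per gene) in the 6 groups, with 1 symbol per mouse and a line at the group mean. With LPS the 3 libraries of Nod1 lie between 6849 and 7455, against 182 to 214.5 in Unstimulated cells, while Mavs lies lower with LPS than without it.

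JQ1 given before LPS lowered 9 of the 10 members relative to LPS alone and raised 1, Mavs, against 32.9% of genes tested that fell and 24.4% that rose. The members' median log2 fold change was -1.91, against -0.11 over all genes. Nod1 kept 22.1% of its LPS level and Nod2 17.8%. Counts with LPS + JQ1 were 1526, 1569 and 1654 for Nod1 (log2 fold change -2.18, SE 0.09, DESeq2 adjusted p = 2.14e-132). For Nod2 they were 434, 502 and 497 (log2 fold change -2.49, SE 0.16, DESeq2 adjusted p = 1.2e-54). All LPS + JQ1 libraries were below all LPS libraries for both receptors. Ripk2 differed from them, with 5669, 5497 and 5656 with LPS + JQ1, or 76.4% of the LPS level (log2 fold change -0.39, SE 0.09, DESeq2 adjusted p = 5.23e-05). That smaller fall was lost with total-count scaling (-0.01, adjusted p = 0.923) and with limma on log2(TPM + 1) (-0.08, adjusted p = 0.458), where the medians of all genes were 0.25 and 0.17. Relative to the median of all genes it was -0.28 with the size factors used, -0.26 with total counts and -0.25 with TPM.

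All 3 helicases fell with JQ1 during LPS. Ifih1 read 9083, 10556 and 9467 with LPS + JQ1, 21.1% of its LPS level (log2 fold change -2.25, SE 0.14, DESeq2 adjusted p = 6.88e-58). Ddx58 read 4750, 5009 and 4678, or 29.3% to 35.2% by mouse (log2 fold change -1.65, SE 0.18, DESeq2 adjusted p = 6.1e-19). Dhx58 read 808, 952 and 1032 and kept 16.8%, the lowest share of the 10 (log2 fold change -2.57, SE 0.16, DESeq2 adjusted p = 7.12e-55). Its LPS + JQ1 libraries still lay above every Unstimulated library, as did those of Ifih1 and Ddx58.

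The adaptors moved in opposite directions with JQ1 during LPS. Tmem173 dropped to 66.3, 76.9 and 48.0, 17.3% of the LPS level and the lowest values of this gene in any group (log2 fold change -2.51, SE 0.15, DESeq2 adjusted p = 3.38e-58). Mavs stood at 331, 336 and 293, 138% of its LPS level (log2 fold change 0.47, SE 0.11, DESeq2 adjusted p = 0.000102), still below every Unstimulated library. The kinases fell, Tbk1 to 2110, 2161 and 2014 (61.8% of LPS, log2 fold change -0.69, SE 0.07, DESeq2 adjusted p = 1.21e-21) and Ikbke to 3516, 3468 and 3818 (34.7%, log2 fold change -1.53, SE 0.12, DESeq2 adjusted p = 9.12e-35). Each of the 10 members had LPS + JQ1 libraries that did not overlap the LPS libraries, and each moved the same way in all 3 mice. The share of all genes with such a separation was not counted. Neutrophil markers summed to 13.0 to 29.6 TPM with LPS + JQ1 and B cell markers to at most 0.680 TPM, below their LPS ranges (35.5 to 50.8 and 0.890 to 1.53). The sum of the macrophage markers was higher (19578 to 22564, against 14317 to 15764 TPM), and was mostly Lyz2 (15137 to 17501, against 9722 to 10567 TPM). Adgre1, Csf1r and Cd14 overlapped their LPS ranges, and Cd68, Itgam, Mertk and Fcgr1 (10.4 to 13.8, against 246.9 to 291.5 TPM) lay below theirs. The part of these markers in the falls was not tested.

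JQ1 also acted on cells that saw no LPS. Without LPS all 10 members passed the test, 7 lower and 3 higher, where 23.7% of genes tested fell and 21.9% rose. Tmem173 fell the most, from 477.5, 423 and 382 to 162, 158 and 166 (log2 fold change -1.40, SE 0.12, DESeq2 adjusted p = 6.89e-29). Nod1 fell to 70.0, 85.8 and 87.0 (log2 fold change -1.26, SE 0.14, DESeq2 adjusted p = 3.29e-19) and Nod2 to 25.9, 39.4 and 47.6 (log2 fold change -1.33, SE 0.22, DESeq2 adjusted p = 6.41e-09), each clear of the Unstimulated range. Ddx58 (log2 fold change -1.17), Ifih1 (-0.84) and Ikbke (-0.54) fell as well, with values of -0.73, -0.61 and -0.35 without Unstimulated replicate 1. Dhx58 fell only with that library in the fit (log2 fold change -0.41, SE 0.17, DESeq2 adjusted p = 0.0378, against -0.10 and adjusted p = 0.619 without it), and its JQ1 libraries (263, 288 and 282) overlapped the Unstimulated range. Ripk2 went the other way, with 361, 301 and 297 against 158, 172.5 and 153.5 in Unstimulated cells, higher with no overlap (log2 fold change 1.00, SE 0.12, DESeq2 adjusted p = 6.46e-16). Tbk1 (log2 fold change 0.34, DESeq2 adjusted p = 3.35e-05) and Mavs (0.27, adjusted p = 0.0101) rose by less. Both rises lost their call with total-count scaling (0.16 and 0.10) and with limma on log2(TPM + 1) (0.13 and 0.07), and that of Mavs also without any 1 of the mice or without Unstimulated replicate 1 (adjusted p from 0.055 to 0.258). With JQ1 alone the neutrophil markers (7.46 to 16.9 TPM) and B cell markers (0.200 to 0.500, against 2.34 to 5.34 TPM) lay below the Unstimulated range. The sum of the macrophage markers lay above it, and was mostly Lyz2 (24471 to 24853, against 17677 to 19119 TPM). Cd14 and Mertk were also higher, while Cd68, Adgre1, Csf1r, Itgam and Fcgr1 (9.92 to 11.1, against 105 to 143 TPM) were lower. The part of these markers was not tested.

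Whether the effect of JQ1 differed with and without LPS was tested by the interaction, in which a negative value means that the log2 fold change with JQ1 was lower in LPS-treated cells. Of the 10 members 8 passed, all negative, against 23.8% of genes tested that passed with a negative value. The strongest was Dhx58, at -2.16 (SE 0.24, DESeq2 adjusted p = 2.4e-18), which rested on a small effect without LPS and a large one with it. Ifih1 (-1.40), Nod2 (-1.16), Tmem173 (-1.11), Ikbke (-0.99) and Nod1 (-0.92) fell in both states and further with LPS. Ripk2 (-1.39) and Tbk1 (-1.03) rose with JQ1 alone and fell with it during LPS, with the scaling limits given for the fall of Ripk2 and the rise of Tbk1. Ddx58 did not pass (log2 fold change -0.48, SE 0.26, DESeq2 adjusted p = 0.133, 95% interval -0.99 to 0.04), but did without Unstimulated replicate 1 (-0.91, adjusted p = 3.2e-11) and without mouse 1 (-0.87, adjusted p = 5.98e-06). Mavs did not pass (log2 fold change 0.19, SE 0.15, DESeq2 adjusted p = 0.303, 95% interval -0.10 to 0.48) and was called with total-count scaling (0.75, adjusted p = 9.44e-07). The median interaction of all genes moved from -0.05 to 0.51 under that scaling. Nod2 lost its call without mouse 3 (-0.99, adjusted p = 0.123) and with total counts (-0.60, adjusted p = 0.0509).

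**Figure D2:**
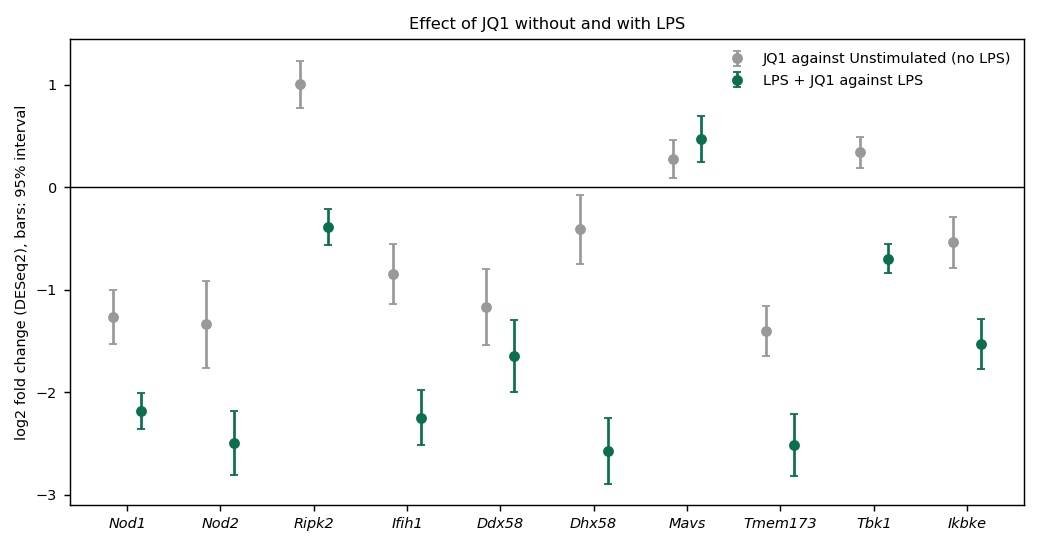
Log2 fold change of each gene with JQ1, without LPS (grey) and during LPS (green), with bars for the 95% interval of the DESeq2 fit. The green points lie lower than the grey ones for 9 of the 10 genes and higher for Mavs, and Ripk2 and Tbk1 lie above 0 without LPS and below 0 with it.

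LPS still raised most members in the presence of JQ1. LPS + JQ1 against JQ1 alone gave 8 members higher and 2 lower, where 27.6% of genes tested rose and 31.0% fell. Folds were 32.7 for Ifih1, 19.6 for Nod1, 18.8 for Ddx58, 17.5 for Ripk2 and 12.7 for Nod2, and smaller for Ikbke (5.56), Dhx58 (3.35) and Tbk1 (1.76). Mavs fell here too (log2 fold change -1.14, SE 0.10, DESeq2 adjusted p = 8.69e-29). Tmem173 also fell, from 162, 158 and 166 with JQ1 to 66.3, 76.9 and 48.0 with LPS + JQ1 (log2 fold change -1.33, SE 0.16, DESeq2 adjusted p = 3.96e-16). In all 10 genes these groups did not overlap, and the share of all genes with such a separation was not counted.

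IL-10 before LPS had a narrower effect, with 4 of the 10 members lower than with LPS alone and 0 higher, where 8.81% of the 11448 genes tested fell. At an unadjusted p under 0.05, 5 members were lower and 0 higher in DESeq2, and edgeR also called 4 lower and 0 higher. Ripk2 fell the most, to 5059, 3942 and 4781, 62.6% of its LPS level (log2 fold change -0.68, SE 0.09, DESeq2 adjusted p = 7.11e-12). Tmem173 fell to 254, 217 and 242 (64.6%, log2 fold change -0.62, SE 0.12, DESeq2 adjusted p = 9.17e-06). Both were below LPS in every mouse. Nod1 fell to 5774, 5074 and 5235 (74.7%, log2 fold change -0.42, SE 0.09, DESeq2 adjusted p = 2.08e-05), and Ifih1 to 36005, 29151 and 38484 (75.1%, log2 fold change -0.41, SE 0.14, DESeq2 adjusted p = 0.0198). These smaller falls were less firm, since that of Ifih1 lost its call without mouse 2 (-0.37, adjusted p = 0.12), without mouse 3 (-0.41, adjusted p = 0.0681), with total counts and with TPM, and that of Nod1 lost it without mouse 2 (-0.35, adjusted p = 0.103) and with log2(TPM + 0.1). Dhx58 read 4735, 4322 and 4033 and did not pass (log2 fold change -0.34, SE 0.16, DESeq2 adjusted p = 0.142), though its libraries lay below those of LPS and it passed without mouse 1 (-0.37, adjusted p = 0.0489). The intervals of the rest were -0.34 to 0.26 for Nod2, -0.45 to 0.26 for Ddx58, -0.20 to 0.08 for Tbk1, -0.24 to 0.23 for Ikbke and -0.07 to 0.39 for Mavs. Set against the LPS library of the same mouse, Nod2 (93.8% to 99.3%), Ddx58 (91.6% to 94.9%) and Tbk1 (94.6% to 98.8%) were lower in all 3 mice, and with the mouse as a block their intervals were -0.38 to 0.29, -0.43 to 0.23 and -0.20 to 0.09.

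Without LPS, IL-10 raised 1 member, Tmem173, and lowered 0, where 1.80% of genes tested rose. DESeq2 and edgeR each found 1 member lower at an unadjusted p under 0.05 and called 0 lower. Tmem173 read 554, 601 and 545 with IL-10 against 477.5, 423 and 382 (log2 fold change 0.41, SE 0.11, DESeq2 adjusted p = 0.0104), and the ranges did not overlap. It lost the call when any 1 mouse was left out of all groups (log2 fold change 0.35 to 0.52, adjusted p 0.129 to 0.426) and with limma on log2(TPM + 1) (0.45, adjusted p = 0.074). Without Unstimulated replicate 1 it was 0.51 (adjusted p = 0.00102). Dhx58 read 266, 229 and 311.5 with IL-10 (log2 fold change -0.46, SE 0.17, DESeq2 adjusted p = 0.156, or -0.15 and adjusted p = 0.924 without Unstimulated replicate 1). The IL-10 effect differed with and without LPS for 3 members, all negative, against 3.44% of genes tested that passed with a negative value. For Tmem173 the interaction was -1.03 (SE 0.16, DESeq2 adjusted p = 5.15e-08), a rise without LPS and a fall with it. For Nod1 it was -0.46 (adjusted p = 0.0218) and for Ripk2 -0.49 (adjusted p = 0.0224), and these 2 lost their calls with total counts (adjusted p = 0.0745 and 0.0795), with TPM and without mouse 2 (adjusted p = 0.632 and 0.184) or mouse 3 (adjusted p = 0.425 and 0.167). Ripk2 also lost it without mouse 1 (adjusted p = 0.115) and without Unstimulated replicate 1 (adjusted p = 0.0634), and Nod1 in edgeR (adjusted p = 0.0652).

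The agents were compared directly during LPS. LPS + JQ1 was called lower than LPS + IL-10 for 8 members and higher for 2, where 31.6% of genes tested were called lower and 23.8% higher. Nod2 (-2.45), Dhx58 (-2.23), Tmem173 (-1.89), Ifih1 (-1.83), Nod1 (-1.76), Ddx58 (-1.55), Ikbke (-1.52) and Tbk1 (-0.64) had the lower log2 values. Ripk2 was the higher with LPS + JQ1 (log2 fold change 0.29, SE 0.09, DESeq2 adjusted p = 0.00379), in all 3 mice, but lost its call without mouse 2 (0.21, adjusted p = 0.0665). Mavs was also higher (log2 fold change 0.31, SE 0.11, DESeq2 adjusted p = 0.0114), although the ranges overlapped, and lost its call without mouse 1 (0.22, adjusted p = 0.278). The comparisons of each agent with LPS share the same 3 LPS libraries.

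**Figure D3:**
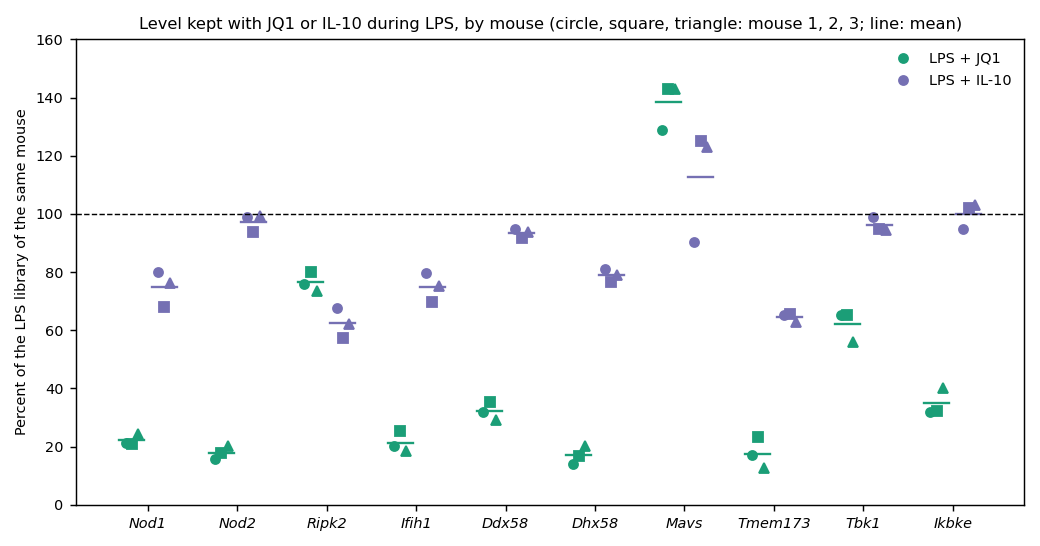
Normalised count with JQ1 (green) or IL-10 (purple) during LPS as a percent of the LPS library of the same mouse, with a dashed line at 100%. With JQ1, Dhx58 kept 13.9% to 20.2% and Ripk2 73.6% to 79.9%, whereas with IL-10 Ripk2 kept 57.3% to 67.8% and Nod2 93.8% to 99.3%.

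Compared per length, the order of the members changed with stimulation. In Unstimulated cells the kinases led, Tbk1 at 45.5 ± 2.35 TPM (mean ± SD, n = 3) and Ikbke at 42.7 ± 9.63 TPM, whose ranges overlapped. The adaptors followed, Mavs at 29.2 ± 0.872 and Tmem173 at 27.8 ± 3.17 TPM, which did not differ beyond their spread. The helicases came next, Dhx58 at 22.7 ± 8.09, Ddx58 at 16.5 ± 7.57 and Ifih1 at 13.7 ± 3.69 TPM. Each overlapped its neighbour, and Dhx58 also overlapped Tmem173. Ripk2 (8.85 ± 0.204 TPM), Nod1 (6.41 ± 0.713 TPM) and Nod2 (2.84 ± 1.22 TPM) closed the order without overlap.

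With LPS the order was led by Ifih1, at 632, 620.0 and 829.6 TPM in mice 1, 2 and 3. Ikbke (275 ± 4.48 TPM), Ddx58 (254 ± 32.1) and Ripk2 (236 ± 26.5) formed a group of overlapping neighbours. Dhx58 (199 ± 1.80), Nod1 (139 ± 7.15), Tbk1 (95.9 ± 12.7) and Nod2 (48.4 ± 1.96 TPM) followed without overlap. The adaptors were now last, Tmem173 at 14.1, 12.4 and 15.8 TPM and Mavs at 7.08, 6.77 and 6.58 TPM. With LPS + JQ1 Ripk2 was first, at 215, 226.5 and 224 TPM, above Ifih1 at 161, 204.5 and 176 TPM, and Tmem173 was last at 3.01, 3.76 and 2.36 TPM. With LPS + IL-10 Ifih1 stayed first (561 ± 95.3 TPM), and Ripk2 (163, 137.0 and 176.5 TPM) overlapped Dhx58 (169 ± 1.92 TPM). Cells given only JQ1 had Tbk1 first (50.0 ± 2.11 TPM) and Nod2 last (1.01 ± 0.300 TPM), and cells given only IL-10 had Ikbke and Tbk1 overlapping at the top (47.1 ± 8.07 and 44.8 ± 4.40 TPM) with Nod2 last (3.04 ± 0.482 TPM).

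**Figure D4:**
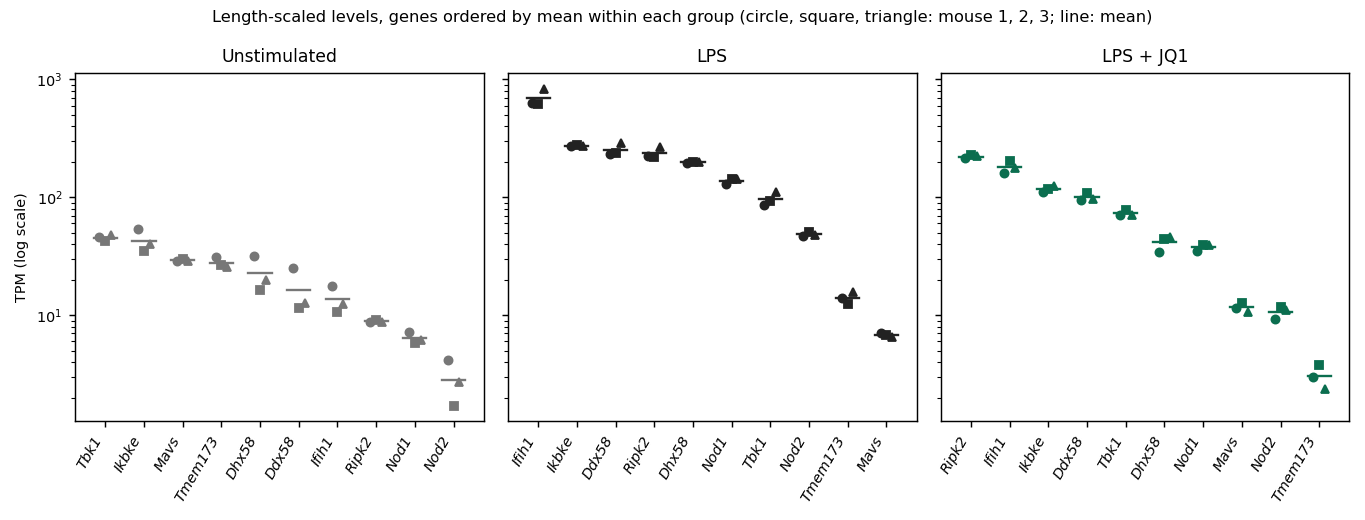
TPM (log scale) of the 10 genes in Unstimulated, LPS and LPS + JQ1 cells, ordered by mean within each group, with 1 symbol per mouse and a line at the mean. Tbk1 leads in Unstimulated cells, Ifih1 with LPS and Ripk2 with LPS + JQ1, and Mavs and Tmem173 are the lowest with LPS.

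The genes that work with the NOD receptors, a list of 21 covering the ubiquitin ligases, TAK1 complex and peptide transporters of the pathway, had a smaller median change than the members. With LPS 14 of the 21 tested rose and 3 fell, where 31.6% of all genes tested rose and 32.9% fell, with a median log2 fold change of 0.49. Among partners averaging at least 100 normalised counts over the 18 libraries, Tnfaip3, the ubiquitin-editing inhibitor A20, rose the most (mean normalised count 39018 against 494, log2 fold change 6.30, SE 0.12), followed by Birc3, a ubiquitin ligase that modifies RIPK2 (mean normalised count 6125 against 562, log2 fold change 3.43, SE 0.12). The largest falls were those of Tab1, a TAK1-binding protein (mean normalised count 53.7 against 272, log2 fold change -2.35, SE 0.17), and Card9, a signalling adaptor (mean normalised count 131 against 360.0, log2 fold change -1.45, SE 0.13). JQ1 during LPS lowered 12 and raised 4 (median -0.51), where 32.9% of genes tested fell and 24.4% rose. Tnfaip3 (mean normalised count 12188 against 39018, log2 fold change -1.68, SE 0.12) and Birc3 (mean normalised count 2409 against 6125, log2 fold change -1.35, SE 0.11) fell the most, and Tab1 (mean normalised count 79.4 against 53.7, log2 fold change 0.57, SE 0.19) and Otulin, which cleaves linear ubiquitin (mean normalised count 660.2 against 521, log2 fold change 0.34, SE 0.08), rose the most. IL-10 during LPS lowered 1 of 20 and raised 0, where 8.81% of genes tested fell and 8.38% rose. The gene lowered was Tab2 (mean normalised count 10325 against 12540, log2 fold change -0.28, SE 0.07).

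Of 20 partners of the RIG-I-like receptors, LPS raised 13 and lowered 3 (median 1.77), beside 31.6% and 32.9% of all genes tested. Irf7, an interferon regulatory factor, rose the most (mean normalised count 21449 against 425.5, log2 fold change 5.65, SE 0.37), ahead of the helicase Ddx60 (mean normalised count 3026 against 112, log2 fold change 4.73, SE 0.23). Traf3, a ubiquitin ligase recruited by MAVS (mean normalised count 358 against 513, log2 fold change -0.53, SE 0.12), and Irf3, the factor phosphorylated by TBK1 (mean normalised count 340.3 against 419.6, log2 fold change -0.31, SE 0.11), fell. The third gene lowered, Nlrx1, averaged under 100 counts and is named after its values were seen (162.8, 197.9 and 184.3 normalised counts to 12.7, 42.4 and 17.2, log2 fold change -2.84, SE 0.25). JQ1 during LPS lowered 13 and raised 4 (median -0.59), beside 32.9% and 24.4% of all genes. Tbkbp1, an adaptor of TBK1, fell the most (mean normalised count 64.0 against 526.5, log2 fold change -3.05, SE 0.17), then Ddx60 (mean normalised count 778 against 3026, log2 fold change -1.96, SE 0.22). Tradd (mean normalised count 393 against 212, log2 fold change 0.90, SE 0.14), a death-domain adaptor, and Irf3 (mean normalised count 554 against 340.3, log2 fold change 0.70, SE 0.11) rose. With IL-10 2 of the 19 tested rose, Optn, a ubiquitin-binding regulator of TBK1 (mean normalised count 1174 against 611, log2 fold change 0.94, SE 0.09), and Traf3 (mean normalised count 490.5 against 358, log2 fold change 0.45, SE 0.12), and 2 fell, Trim25, the ligase that activates RIG-I (mean normalised count 9952 against 11832, log2 fold change -0.25, SE 0.05), and Zc3hav1, an antiviral RNA-binding protein (mean normalised count 9469 against 10480, log2 fold change -0.15, SE 0.05). With 8.38% of all genes tested called higher and 8.81% called lower, these counts were close to the share over all genes.

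Of 16 genes of cytosolic DNA sensing, LPS raised 8 and lowered 7 (median 0.54), beside 31.6% and 32.9% of all genes tested. Among those averaging at least 100 counts, Zbp1, a sensor of Z-form nucleic acid (mean normalised count 6285 against 122, log2 fold change 5.67, SE 0.40), and Ifi204, a DNA sensor whose near relatives may share its reads (mean normalised count 28291 against 1102, log2 fold change 4.68, SE 0.17), rose the most. Dnase2a, a lysosomal DNase (mean normalised count 511.5 against 1524, log2 fold change -1.58, SE 0.08), and Trim32, a ubiquitin ligase (mean normalised count 83.0 against 178, log2 fold change -1.13, SE 0.16), fell the most. Nlrc3, an inhibitor of STING signalling that averaged 58.0 counts and is named after its values were seen, fell further, from 132.7, 123.5 and 127.4 to 33.9, 33.1 and 22.1 (log2 fold change -2.11, SE 0.24). JQ1 during LPS lowered 10 and raised 2 (median -0.43), beside 32.9% and 24.4% of all genes. With the same minimum the largest falls were in Zbp1 (mean normalised count 676 against 6285, log2 fold change -3.22, SE 0.40) and Ifi204 (mean normalised count 11346 against 28291, log2 fold change -1.32, SE 0.17) and the rises in Trim32 (mean normalised count 142 against 83.0, log2 fold change 0.78, SE 0.16) and Dnase2a (mean normalised count 613 against 511.5, log2 fold change 0.26, SE 0.09). Nlrc3 fell to 3.31, 8.43 and 6.16 counts (log2 fold change -2.31, SE 0.43). IL-10 during LPS raised 2, Enpp1, which degrades the STING ligand cGAMP (mean normalised count 202 against 141, log2 fold change 0.53, SE 0.17), and Trim56 (mean normalised count 1844 against 1572, log2 fold change 0.23, SE 0.08), and lowered 0, beside 8.38% and 8.81% of all genes. The medians of all genes tested were -0.07 with LPS, -0.11 with JQ1 during LPS and -0.02 with IL-10 during LPS.

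Across the 18 libraries, the genes whose log2 normalised counts most resembled each member, among 8378 with a mean of at least 100, were Sp110 (r = 0.999) and Helz2 (r = 0.998) for Nod1, Psmb10 (r = 0.995) and Psme2b (r = 0.995) for Nod2 and Ppp1r2 (r = 0.997) and Spryd7 (r = 0.996) for Ripk2. For the helicases they were Samhd1 (r = 0.998) and Ccdc25 (r = 0.998) for Ifih1, Irgm1 (r = 0.998) and Igtp (r = 0.998) for Ddx58 and Atp13a1 (r = 0.994) and Keap1 (r = 0.994) for Dhx58. The closest to Mavs were Tbc1d17 (r = 0.993) and Sgsh (r = 0.990), and to Tmem173 Tifab (r = 0.972) and Slc25a24 (r = 0.969), the lowest r of the 10. Tbk1 was closest to Mier3 (r = 0.997) and Fam102b (r = 0.996), and Ikbke to Myd88 (r = 0.998) and Lrrc59 (r = 0.998). Samhd1 is one of the DNA sensing genes listed, and Myd88 is an adaptor of TLR4. The libraries share the division by LPS, so that genes that respond to it strongly in the same direction tend to have a high r. Psme2b has a near-identical copy, Psme2, with which it may share reads.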

How the data were processed

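RNA was sequenced from 18 cultures (6 groups of 3). Per the study's methods, stranded libraries depleted of ribosomal RNA were read as paired ends of 50 bases, extracted with TagDust 1.13, aligned to mm9 with STAR and quantified with RSEM 1.2.31. The authors deposited expected counts, in which RSEM divides a read that matches several genes among them and which were rounded here, and TPM values, which they scaled to transcript length. The authors' FPKM column was not used here. Groups and replicate numbers came from the titles.

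The DESeq2 1.42.0 Wald test (R 4.3.3) was fitted to 24485 genes in the 18 libraries, modelling the group alone, with size factors by the median of ratios and the default independent filtering, since the study's methods name this tool. Adjusted p-values are Benjamini-Hochberg over all genes tested, with a threshold of 0.05. Interactions were differences of effects in the same fit, and 95% intervals used 1.96 standard errors. Alternatives used edgeR 4.0.16, limma 3.58.1 on log2 of TPM plus 1 or 0.1 (TPM of at least 1 in at least 3 libraries), TMM and total-count scaling, a filter of 10 counts in 3 libraries, the lane as a covariate and subsets of libraries. The fits were also tried on simulated counts in which few genes changed, in the LPS group only, with no differences between mice. That setting was simpler than these data and does not bear on the effect of scaling.

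The labels describe matched cultures of 3 mice, so replicate numbers name the mice. The deviations of same-numbered libraries from their group means had a mean r across genes of 0.319 for LPS + IL-10 with LPS, 0.126 for LPS with Unstimulated and -0.040 for LPS + JQ1 with LPS, and a fit with the mouse as a block was made beside the unblocked one. Replicate 1 was on lane 7, replicate 3 on lane 8, and replicate 2 on lane 7 without LPS and lane 8 with it. At 6781952 to 28289498 counts per library, 3 counts are worth 0.106 to 0.442 CPM, a floor that covers counting error only, since the methods describe no molecular identifiers. Replicates differed by more than sampling noise in all pairs.

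The members and gene lists were chosen with earlier results of these data known. Named partners are the 2 largest rises and the 2 largest falls per list in 3 comparisons, among called genes averaging 100 or more normalised counts. Genes of similar pattern are the 2 with the highest Pearson r per member. The shortened motifs and the fits without Unstimulated replicate 1 were added after the data were seen.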

Additional observations from a re-analysis of the deposited data

Results flagged for a closer look

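These results are listed because the effect of an agent differed with and without LPS by the interaction of the DESeq2 fit (adjusted p under 0.05). For this list single outlying libraries were to be sought only in groups of 4 to 10, and these groups hold 3, so none was sought. The higher values of Unstimulated replicate 1 were met in the counts, and the fits without it were added afterwards. For JQ1 the interaction on the log2 scale was -0.92 for Nod1, -1.16 for Nod2, -1.39 for Ripk2, -1.40 for Ifih1, -2.16 for Dhx58, -1.11 for Tmem173, -1.03 for Tbk1 and -0.99 for Ikbke. For IL-10 it was -0.46 for Nod1, -0.49 for Ripk2 and -1.03 for Tmem173. Total-count scaling moved the median JQ1 interaction of all genes tested from -0.05 to 0.51 and that of the members from -1.07 to -0.52.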

How the results depend on the processing

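Over members, comparisons and alternatives, 1073 of 1130 log2 fold changes kept their side of the threshold, 44 lost it, 13 gained it and 0 changed sign with a call on either side. Of those that kept it, 41 changed sign while passing in neither fit. LPS raised the same 8 members under every alternative, and JQ1 during LPS lowered 8 members (all but Ripk2 and Mavs) and raised Mavs under every alternative.

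The mouse as a block changed 0 of the 90 member calls, and the replicate block kept the counts of members called at 9 for LPS, 10 for JQ1 during LPS and 4 for IL-10 during LPS. The lane as a covariate changed no member's call either.

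The results for IL-10 were the least firm. Members called with IL-10 against Unstimulated went from 1 to 0 with limma on log2(TPM + 1) and log2(TPM + 0.1), where 1 member had an unadjusted p under 0.05, and ranged from 0 to 1 when a mouse was left out. The 1 called without mouse 3 was Dhx58 (lower, -0.69, adjusted p = 0.0162), and Tmem173 was not called without any 1 of the mice. Those with LPS + IL-10 against LPS went from 4 to 2 with log2(TPM + 0.1) and ranged from 2 to 5 without a mouse. Those of the interaction of LPS and IL-10 went from 3 to 1 with total counts and with both TPM fits, and ranged from 1 to 2 without a mouse. Leaving out a mouse leaves fewer libraries, and for the other alternatives the cause was not tested.

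Scaling moved the median log2 fold change of all genes with LPS from -0.07 to -0.15 (TMM) and -1.02 (total counts), and with JQ1 during LPS from -0.11 to 0.00 and 0.25. In limma on log2(TPM + 1), which also changed the test, the transform and the genes tested, these medians were -0.69 and 0.17. The share of called genes that were higher moved too. With total counts it went from 49.0% to 20.1% for LPS, from 48.0% to 26.8% for JQ1, from 42.5% to 64.9% for LPS + JQ1 and from 48.7% to 71.1% for LPS + IL-10 against LPS, from 42.9% to 61.2% for LPS + JQ1 against LPS + IL-10, from 47.1% to 25.6% for LPS + JQ1 against JQ1, and from 42.6% to 85.4% and 53.7% to 73.6% for the interactions with JQ1 and IL-10. With log2(TPM + 1) these shares were 23.2%, 24.6%, 62.7%, 75.3%, 57.7%, 30.5% and, for the JQ1 interaction, 82.8%, and for IL-10 alone it went from 64.0% to 84.8%. TMM in DESeq2 moved the JQ1 interaction from 42.6% to 54.7%. Over all genes, calls for IL-10 alone went from 358 to 231 in edgeR, 171 with log2(TPM + 1), 117 with log2(TPM + 0.1) and 130 to 196 without a mouse. Calls for IL-10 during LPS went from 1968 to 1089 with only the groups compared and 874 to 1250 without a mouse, those of its interaction from 804 to 529 with log2(TPM + 0.1) and 291 to 471 without a mouse, and without mouse 1 those for JQ1 alone went from 6248 to 4050 and those of its interaction from 5279 to 3471. Depth limits the precision of low values, of which the lowest of any member was 25.9 normalised counts (Nod2, JQ1 replicate 1).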
